A study of Mus musculus with 4 samples.

Results

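The enzymes described here make, recycle and break down glutathione in brown adipose tissue (BAT), together with those that supply its cysteine. They are the breakdown enzymes Chac1, Chac2 and Ggct, the synthesis enzymes Gclc, Gclm and Gss, the recycling enzyme Gsr and the transsulfuration enzymes Cbs and Cth. Members were taken as the non-control probes whose RefSeq accession on the array maps to one of these genes, which gave 11 probes of 9 genes among 55681 probes of 20145 named genes. All 9 genes were well above background on all 4 arrays, so none was lost to the filter on dim probes.

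The BAT came from male Tg mice with the transgene Fv2E-PERK, in which the kinase PERK, which phosphorylates eIF2α, becomes active when the artificial ligand AP20187 (AP) brings its molecules together. Both groups were Tg mice established in the C57/BL6N strain and were 8 weeks old, and 2 received AP and 2 received vehicle, a mixture of ethanol, polyethylene glycol and Tween-20 in water, by intraperitoneal injection 12 h before the tissue was taken. The dose of AP is given as 0.05 mg/kg in the legend and as 1 ng/g, or 0.001 mg/kg, in the sample labels. The mouse aP2 (Fabp4) promoter drives the transgene in white and brown adipose tissue and is also known to be active in macrophages, and because no AP-treated mice without the transgene were analysed here, an effect of AP itself and one of the kinase cannot be told apart.

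Each mouse gave 1 one-color Agilent array, and the processed signal of each probe is given on the log2 scale relative to the 75th percentile of its array, so that 0 is the 75th percentile. The labels number the samples as replicates of a group, and p values measure only the spread between these samples. All 4 arrays lay on 1 slide and were read in 1 scan, and since the groups lay at different places on it, place and treatment cannot be told apart. Between 46.4% and 49.0% of spots were well above background, and 0 were saturated. The summed level of 11 brown adipocyte markers, all of which were measured, was 7871 and 5213 times the 75th percentile with vehicle and 6258 and 7136 times with AP. Without Cidea, the brightest, it was 5272 and 3643 with vehicle and 4092 and 4693 with AP. A sum of this kind follows its bright genes and hides the spread of others. Elovl3, named after its values were seen, was at 6.08 and -1.07 with vehicle and 3.52 and 5.76 with AP on the log2 scale. The AP arrays were both below the vehicle arrays for 2 of the 11 and both above for 1, where 17.3% and 20.1% of all genes were. Of the 11, 6 were higher and 5 lower on average with AP, where 51.4% of all genes were higher. Their median log2 fold change was 0.055. Adrb3, named after its values were seen, had the lowest log2 fold change of the 11, -1.20. It was at 6.80 and 6.70 with vehicle and 5.33 and 5.77 with AP (adjusted p 0.80, limma with Benjamini-Hochberg adjustment). In whole tissue, fewer cells of a type and less RNA per cell cannot be told apart.

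Glutathione is a tripeptide of glutamate, cysteine and glycine and is the main small thiol with which cells reduce peroxides and handle electrophiles. Glutamate-cysteine ligase (Gclc and Gclm) and glutathione synthetase (Gss) build it, glutathione reductase (Gsr) returns its oxidized form to the reduced form at the expense of NADPH, and the ChaC enzymes cut it inside the cell. Cysteine is taken up or made from methionine by transsulfuration, and Chac1 and Cth are known targets of ATF4, the transcription factor that is translated more when eIF2α is phosphorylated in the integrated stress response (ISR).

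Of the enzymes of glutathione breakdown, Chac1 was higher in both AP-treated mice, by 10.7-fold on average, without passing the adjusted threshold, whereas the differences of Chac2 and Ggct were below or within the range of those of the synthesis enzymes. Chac1, measured by probe A_51_P134812, encodes a γ-glutamylcyclotransferase that cleaves reduced glutathione into 5-oxoproline and cysteinylglycine. The promoter of Chac1 is shown because this gene differed most among the 9. It comprises the 250 bases before the RefSeq start site, at chr2:119350992-119351241 on the plus strand of GRCm38.p6, with matches to the motifs searched in capitals.

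Chac1: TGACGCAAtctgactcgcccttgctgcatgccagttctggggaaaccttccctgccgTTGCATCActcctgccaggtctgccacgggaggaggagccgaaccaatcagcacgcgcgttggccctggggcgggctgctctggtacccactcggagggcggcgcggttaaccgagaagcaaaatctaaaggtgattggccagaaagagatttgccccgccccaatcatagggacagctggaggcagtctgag

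On the log2 scale, the signal of Chac1 was 0.02 and -0.98 with vehicle and 2.06 and 3.83 with AP. Before scaling, the processed intensities of the probe were 120.3 and 80.5 with vehicle and 532 and 1683 with AP. The groups thus did not overlap, with a gap of 2.04 between the nearest arrays, and AP replicate 2 exceeded AP replicate 1. The means were -0.48 ± 0.70 (SD, n = 2) with vehicle and 2.94 ± 1.25 (SD, n = 2) with AP. AP differed from vehicle by a log2 fold change of 3.42 (standard error 0.70, 95% interval 1.57 to 5.28), or 10.7-fold with an interval from 2.97-fold to 38.9-fold. The unadjusted limma p was 0.0058 and the adjusted p was 0.80 over the 24970 probes compared (limma, Benjamini-Hochberg), so the difference did not pass the threshold of 0.05. The exact two-sided permutation test gave p = 0.333, the smallest that 2 mice against 2 allow. By the size of its log2 fold change Chac1 was number 4 of 12790 genes, and by the limma p it was number 52.

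The size of the Chac1 difference varied from mouse to mouse. AP replicate 1 was 2.54 and AP replicate 2 was 4.31 above the vehicle mean on the log2 scale, and these are also the fold changes without the other AP-treated mouse. The 2 AP-treated mice differed from each other by 1.77, and 1.39% of all genes differed at least as much between those mice, while the median gene differed by 0.27. The vehicle-treated mice differed by 1.00, a difference reached by 10.3% of genes. With AP replicate 2 left out Chac1 was number 27 by fold change, and with vehicle replicate 2 left out it was number 75.

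**Figure D1:**
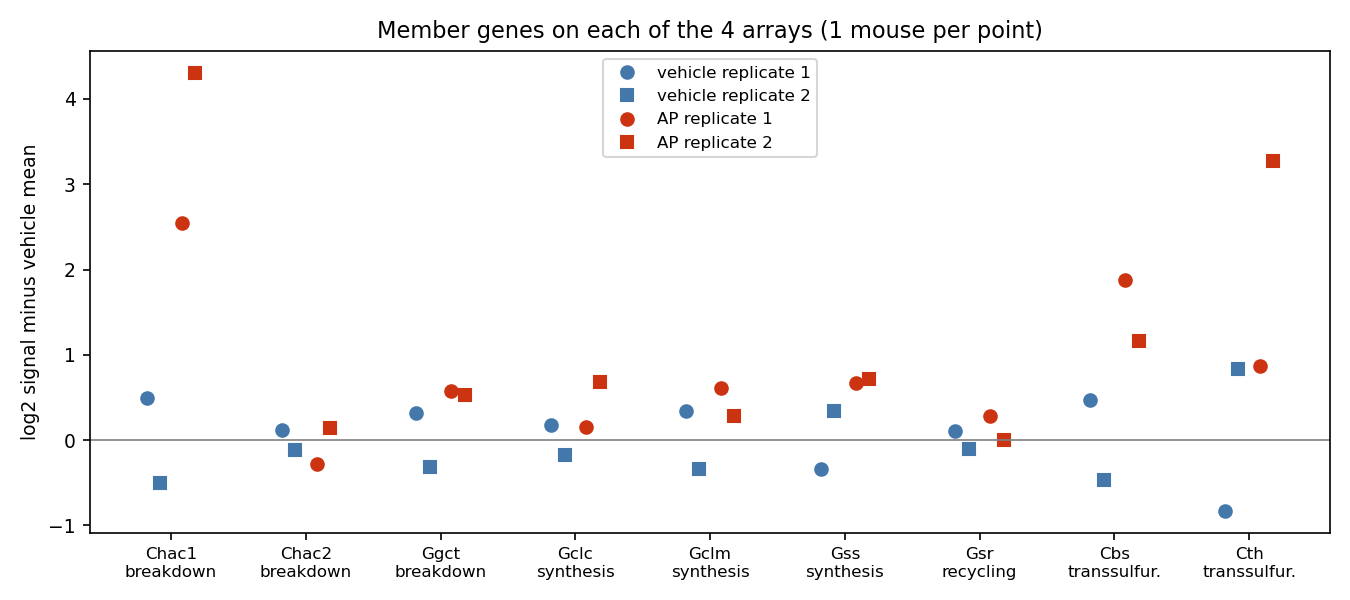
Log2 signal of the 9 genes on each array minus the mean of the vehicle arrays, with 1 point per mouse, vehicle in blue and AP in red, and circles and squares for replicates 1 and 2. The AP points of Chac1 sit at 2.54 and 4.31, and those of Chac2, Ggct, Gclc, Gclm, Gss and Gsr all lie below 1.

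Chac2 (probe A_55_P2065567) encodes a related γ-glutamylcyclotransferase of lower activity toward glutathione. Its log2 signal was 1.20 and 0.96 with vehicle and 0.80 and 1.22 with AP, so the AP-treated mice lay on either side of the vehicle-treated mice. This gave a log2 fold change of -0.07 (standard error 0.26, 95% interval -0.74 to 0.61), with an adjusted limma p of 0.965. Its sign turned when the arrays were scaled to their median, where it was 0.016.

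Ggct (probe A_52_P641758) encodes γ-glutamylcyclotransferase, which acts on γ-glutamyl amino acids rather than on glutathione itself. Its log2 signal was 1.27 and 0.64 with vehicle and 1.53 and 1.48 with AP. The groups did not overlap, but vehicle replicate 1 was close below the AP arrays. Ggct had a log2 fold change of 0.55 (standard error 0.29, 95% interval -0.21 to 1.31), or 1.47-fold, with an adjusted limma p of 0.80 and an exact permutation p of 0.333. Without vehicle replicate 2 it was 0.24, and without vehicle replicate 1 it was 0.86.

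The 3 synthesis enzymes were each somewhat higher on average with AP, by 1.33-fold to 1.62-fold, and none passed the test. With single mice left out, the difference on the log2 scale ran from 0.15 without AP replicate 2 to 0.68 without AP replicate 1 for Gclc. For Gclm it ran from 0.10 without vehicle replicate 2 to 0.79 without vehicle replicate 1, and for Gss from 0.35 without vehicle replicate 1 to 1.03 without vehicle replicate 2. Gclc (probe A_51_P365019), the catalytic subunit of the rate-limiting enzyme, had a log2 signal of 1.58 and 1.22 with vehicle and 1.55 and 2.08 with AP. AP replicate 1 lay between the vehicle-treated mice, for a log2 fold change of 0.42 (standard error 0.29, 95% interval -0.35 to 1.19) with an adjusted limma p of 0.817. Gclm (probe A_51_P320089), the modifier subunit, had a log2 signal of -0.07 and -0.76 with vehicle and 0.21 and -0.13 with AP. The groups overlapped here too, with a log2 fold change of 0.45 (standard error 0.32, 95% interval -0.40 to 1.30) and an adjusted limma p of 0.817.

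Gss (probe A_52_P358860), which joins glycine to γ-glutamylcysteine, was the synthesis enzyme whose groups did not overlap. Its log2 signal was 1.08 and 1.76 with vehicle and 2.09 and 2.13 with AP. The means were 1.42 ± 0.48 (SD, n = 2) and 2.11 ± 0.03 (SD, n = 2), and the vehicle-treated mice were farther apart than the AP-treated mice. Gss had a log2 fold change of 0.69 (standard error 0.30, 95% interval -0.10 to 1.48), or 1.62-fold, with an adjusted limma p of 0.80 and an exact permutation p of 0.333.

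Gsr, glutathione reductase, was measured by a pair of probes that gave similar differences. With probe A_55_P1966982, the brighter one, the log2 signal was 3.16 and 2.94 with vehicle and 3.34 and 3.06 with AP, and the groups overlapped. This probe gave a log2 fold change of 0.14 (standard error 0.23, 95% interval -0.46 to 0.75) with an adjusted limma p of 0.906. Probe A_55_P2103055 gave a log2 fold change of 0.10 (standard error 0.24). The sign for Gsr turned with another background correction (normexp, -0.056) and with the log2 values of the authors (-0.017).

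Both enzymes of transsulfuration were higher on average with AP, but in different ways across the mice. Cbs (probe A_55_P2078670), cystathionine β-synthase, condenses homocysteine with serine. Its log2 signal was -1.36 and -2.29 with vehicle and 0.05 and -0.67 with AP. The groups did not overlap, and AP replicate 1 exceeded AP replicate 2, whereas AP replicate 2 was higher for Chac1. The means were -1.83 ± 0.66 (SD, n = 2) and -0.31 ± 0.51 (SD, n = 2). Cbs had a log2 fold change of 1.52 (standard error 0.44, 95% interval 0.36 to 2.67), or 2.86-fold, with an unadjusted limma p of 0.0207, an adjusted limma p of 0.80 and an exact permutation p of 0.333. The probe was dim, with intensities of 46.3 and 32.4 with vehicle and 132.0 and 74.5 with AP, and with the normexp background correction the log2 fold change was 0.75.

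Cth, cystathionine γ-lyase, releases cysteine from cystathionine and was, of the 9, the gene that varied most between mice of the same group. With probe A_55_P1959923, its log2 signal was -2.51 and -0.85 with vehicle and -0.81 and 1.60 with AP. The groups did not overlap, but AP replicate 1 was above vehicle replicate 2 by only 0.035, and with the log2 values of the authors the groups overlapped. The means were -1.68 ± 1.17 (SD, n = 2) and 0.39 ± 1.70 (SD, n = 2), a difference of 2.07 on the log2 scale (standard error 0.99, 95% interval -0.55 to 4.69), or 4.20-fold. The unadjusted limma p was 0.0961, the adjusted limma p was 0.80 and the exact permutation p was 0.333. The 2 AP-treated mice differed from each other by 2.41 on the log2 scale, and 0.461% of genes differed at least as much between them. Without AP replicate 2 the log2 fold change of Cth was 0.87, without AP replicate 1 it was 3.27, without vehicle replicate 1 it was 1.24, and with the normexp background correction it was 1.20. A second probe, A_51_P431737, read -2.17 and -1.29 with vehicle and -1.06 and 1.61 with AP, which differ by 2.01 (standard error 0.95). Both probes were dim with vehicle. Before scaling, the first had intensities of 20.9 and 88.3 with vehicle and 72.7 and 358.7 with AP. The second had 26.5 and 64.9 with vehicle and 61.4 and 361.3 with AP.

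**Figure D2:**
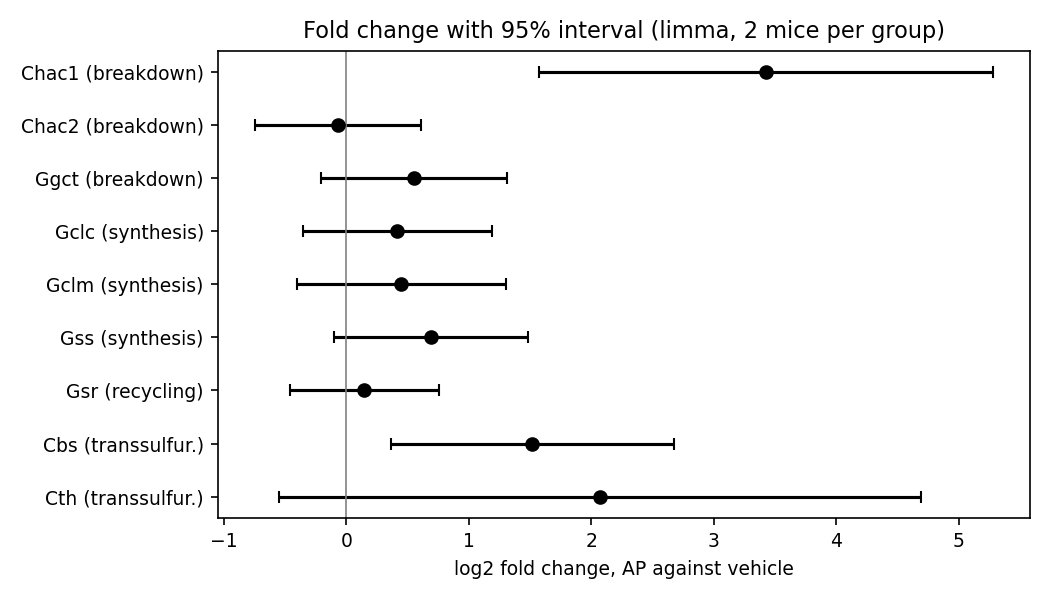
Log2 fold change of each of the 9 genes, AP against vehicle, with its 95% interval from limma and the role of the gene in parentheses. The intervals of Chac1 (1.57 to 5.28) and Cbs (0.36 to 2.67) lie above 0, those of the other genes include 0, and none passed the threshold after adjustment.

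Across the 9 genes, 8 were higher on average with AP, where 51.4% of all 12790 genes compared were. The AP arrays both exceeded the vehicle arrays for 5 of the 9, namely Chac1, Ggct, Gss, Cbs and Cth, where 20.1% of all genes were, and they were below for 0 of the 9, where 17.3% of all genes were. The number above was between 4 and 6 under the other scalings of the arrays. An unadjusted limma p under 0.05 with a higher mean was found for 2 of the 9, Chac1 and Cbs, against 3.78% of all genes, and with a lower mean for 0 of the 9, against 2.26%. By the methods' t-test 0 of the 9 were under 0.05 before adjustment. A log2 fold change of at least 1 was found for 3 of the 9, Chac1, Cth and Cbs, against 2.74% of all genes. After adjustment 0 of the 9 passed, as did 0% of all genes, while 1515 of the probes (6.07%) had an unadjusted limma p under 0.05 and 1478 did by the methods' t-test. A 2-fold change besides such a limma p was found for 579 probes (2.32%), among them those of Chac1 and Cbs. The median log2 fold change of the 9 was 0.55, beside 0.01 for all genes.

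Breakdown and synthesis were then set against each other. Their medians were close, with a median log2 fold change of 0.55 over the 3 breakdown enzymes and 0.45 over the 3 synthesis enzymes. The breakdown median is, however, the value of Ggct, which acts on γ-glutamyl amino acids rather than on glutathione itself. The breakdown enzymes ranged from -0.07 to 3.42 and the synthesis enzymes from 0.42 to 0.69, so the wide range of the first lay with Chac1. The difference between Chac1 and each other gene was therefore taken within each array, which removes the scaling of the array, and its change with AP was compared over the mice. No level of a probe was set against that of another probe.

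Relative to Gclc, Chac1 changed by 3.01 on the log2 scale, or 8.05-fold, with array values of -1.56 and -2.20 for vehicle and 0.51 and 1.74 for AP. Relative to Gclm, the array values were 0.08 and -0.22 for vehicle and 1.86 and 3.96 for AP, a change of 2.98 or 7.87-fold. Relative to Gss, they were -1.06 and -2.74 for vehicle and -0.03 and 1.70 for AP, a change of 2.73 or 6.65-fold. In all 3 comparisons with synthesis, the groups did not overlap and AP was the higher. Leaving out each mouse in turn left the change between 1.87 and 4.03 over the 3 comparisons. The 3 share the values of Chac1, whose own groups lay 2.04 apart, so they do not stand for breakdown as a whole. Chac2, with a log2 fold change of -0.07, lay below the 3 synthesis enzymes at 0.42 to 0.69 and was not set against them within arrays.

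Chac1 was also higher relative to the enzymes outside synthesis. The change was 3.49 relative to Chac2, 3.28 relative to Gsr, 2.87 relative to Ggct and 1.91 relative to Cbs, and the groups did not overlap. Relative to Cth, the array values were 2.52 and -0.13 for vehicle and 2.87 and 2.23 for AP, so the groups overlapped and the change of 1.35 was within the spread of the mice. Of these 8 comparisons, 7 gave an exact permutation p of 0.333, the smallest possible, and that with Cth gave 0.667. After Benjamini-Hochberg adjustment over the 8 comparisons the exact permutation p was 0.381 for the 7 and 0.667 for Cth. With 0.333 as the smallest possible, none could have come under 0.05. Only the 3 comparisons with synthesis were planned, and all 8 share the values of Chac1.

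The order of the AP-treated mice was compared with that of known ISR genes. AP replicate 2 was above AP replicate 1 for Trib3 (8.01 and 6.26, with 2.78 and 2.33 for vehicle), a pseudokinase induced by ATF4, and for Ddit3 (4.22 and 3.03, with 2.18 and 1.86 for vehicle), which encodes CHOP. The log2 fold changes were 4.57 (standard error 0.63) and 1.61 (standard error 0.45), and both genes had an adjusted limma p of 0.80. Asns, asparagine synthetase, had a log2 signal of 5.49 and 4.79 with vehicle and 5.86 and 6.76 with AP. Atf4 itself overlapped between the groups, at 7.49 and 6.12 with vehicle and 7.26 and 8.23 with AP. Atf3, a factor of the same family, overlapped as well, at 0.11 and -0.15 with vehicle and -1.17 and -0.11 with AP. AP replicate 2 was thus above AP replicate 1 for these 5 genes, as it was for 5 of the 9, namely Chac1, Cth, Gclc, Chac2 and Gss, and it was below for the other 4, Cbs among them. For Gss the AP-treated mice differed by only 0.037. Atf3 and Chac2 had the same order of these mice but were lower on average with AP, with log2 fold changes of -0.62 and -0.07. What underlies the order was not tested for any of these genes. Of all genes, 48.8% had AP replicate 2 above AP replicate 1.

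The genes whose profile over the 4 arrays was nearest to that of Chac1 were found by the root mean square difference of log2 signals, each taken relative to its vehicle mean, among 12137 other genes. They were Slc6a9 (0.449), which encodes a glycine transporter, Gramd1b (0.462), Trib3 (0.836), Gadd45a (0.848) and Cyp2e1 (0.960). Relative to its vehicle mean, Slc6a9 was at 2.05 and 3.71 in the AP-treated mice and Gramd1b at 2.40 and 3.54. These genes were picked by their values and no test was made.

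**Figure D3:**
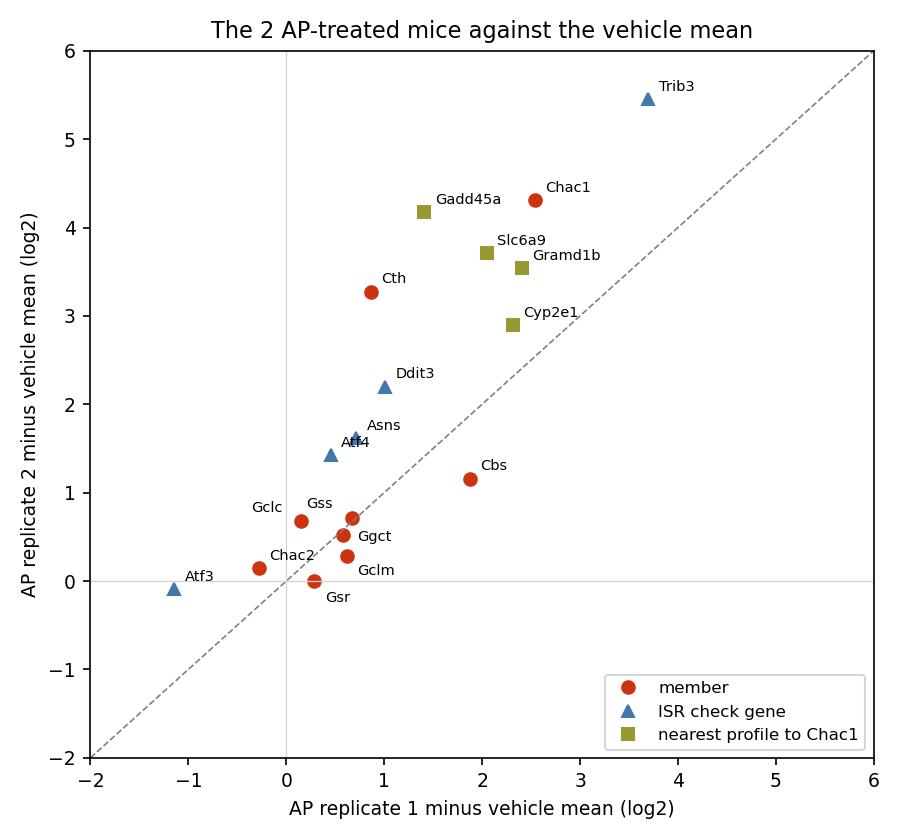
Log2 signal of AP replicate 1 (x axis) and AP replicate 2 (y axis), each minus the vehicle mean, for the 9 genes, 5 genes of the ISR and the genes nearest in profile to Chac1, with equal values on the dashed line. Chac1, Cth, Gclc, Chac2 and Gss lie above the line, as do the 5 ISR genes, and Cbs, Ggct, Gclm and Gsr lie below it.

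The rest of the thiol pathway gave no common direction. Of 87 further genes, 71 were measured, and 37 were higher and 34 lower on average with AP, with a median log2 fold change of 0.03. For the counts here and in the lists below, 51.4% of all genes were higher and 48.6% lower. The AP arrays both exceeded the vehicle arrays for 15 and both fell short of them for 12 of the 71, where 20.1% and 17.3% of all genes did. An unadjusted limma p under 0.05 was found for 5 higher and 1 lower genes, or 6 of the 71, where 3.78% of all genes were higher and 2.26% lower, and 0 passed after adjustment.

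On the supply side, 4 of 5 uptake genes were measured, with 2 higher and 2 lower on average, or 3 and 1 with the arrays scaled to their median. Slc3a2, the heavy chain that cystine and large neutral amino acid transporters share, had a log2 signal of 3.92 and 3.61 with vehicle and 4.52 and 5.18 with AP, which differ by 1.08 (standard error 0.31). Slc1a4, a carrier of small neutral amino acids that include cysteine, had 3.90 and 3.68 with vehicle and 5.17 and 4.47 with AP, which differ by 1.03 (standard error 0.31). For both the groups did not overlap, and the adjusted limma p was 0.80. Slc7a11, the light chain that makes the pair with Slc3a2 a cystine transporter, was not well above background on any array and was not compared.

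In the methionine cycle, which feeds homocysteine to Cbs, 6 of 8 measured genes were higher and 2 lower, where 51.4% of all genes were higher. Their median was 0.28 on the log2 scale, and 4 of 8 were higher with the log2 values of the authors. Of the genes of cysteine use and sulfide oxidation, 8 of 9 measured were higher with a median of 0.25, or 7 of 9 with a median of 0.091 with the log2 values of the authors. The AP arrays were both above the vehicle arrays for 3 of the 9 and both below for 1, where 20.1% and 17.3% of all genes were. Tst, a mitochondrial sulfurtransferase, had the largest log2 fold change, 0.50 (standard error 0.45), with overlapping groups.

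Breakdown outside the cell was little covered. Of 11 genes for it and for 5-oxoproline use, 6 were measured, with 3 higher and 3 lower and a median of -0.15, which turned to 0.025 with the normexp background correction. The γ-glutamyltransferases Ggt1 and Ggt7 were not well above background on any array and Ggt5 was so on 1 array of each group, so they were not compared. Anpep, an aminopeptidase that can cleave cysteinylglycine, had a log2 signal of 1.26 and 2.23 with vehicle and 1.01 and 1.13 with AP, for a log2 fold change of -0.67 (standard error 0.38, adjusted limma p 0.801).

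Among the users of glutathione, 21 S-transferases were measured, of which 6 were higher and 15 lower on average, with a median of -0.18, where 48.6% of all genes were lower. The AP arrays were both below the vehicle arrays for 8 of the 21 and both above for 2, where 17.3% and 20.1% of all genes were, and these counts were not tested. Mgst2, a microsomal member, had a log2 signal of 3.97 and 3.63 with vehicle and 2.72 and 3.25 with AP. Its log2 fold change was -0.82 (standard error 0.29), and it had an unadjusted limma p under 0.05 and an adjusted one of 0.80. Gstm6 had a log2 fold change of -1.16 (standard error 0.47) with an adjusted limma p of 0.80, but members of the Gstm family are close in sequence and whether its probe also binds other transcripts was not tested. Of the peroxidases, 1 of 5 was higher and 4 were lower, with a median of -0.09, and Gpx4, which reduces lipid peroxides, had a log2 fold change of -0.25 (standard error 0.21, adjusted limma p 0.833).

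The genes of NADPH supply, on which Gsr depends, were all 4 lower on average with a median of -0.75, and for 1 of them the AP arrays were both below the vehicle arrays, where 17.3% of all genes were. Pgd had a log2 signal of 7.29 and 5.61 with vehicle and 4.66 and 6.57 with AP, so that vehicle replicate 1 was highest and AP replicate 1 lowest. In the other genes of this list, too, vehicle replicate 1 was highest and AP replicate 1 lowest. The median of the list without either of these mice was not computed. Of the glutaredoxins and thioredoxins, 7 of 10 were higher with a median of 0.11, which turned to -0.053 with the log2 values of the authors, and Txnrd3, a thioredoxin reductase, had a log2 fold change of 0.69 (standard error 0.24). The 4 transport genes were all higher on average with a median of 0.59, although 3 of 4 were with the log2 values of the authors, and for 3 of them the AP arrays both exceeded the vehicle arrays, where 20.1% of all genes did. Abcc4, an exporter that can carry glutathione, had a log2 signal of 0.09 and 0.54 with vehicle and 1.01 and 2.34 with AP, which differ by 1.36 on the log2 scale (standard error 0.50). Slc25a40, a mitochondrial carrier linked to glutathione import, had a log2 signal of -0.93 and -0.97 with vehicle and -0.40 and -0.39 with AP. Its log2 fold change was 0.56 (standard error 0.20), and the adjusted limma p of Txnrd3, Abcc4 and Slc25a40 was 0.80.

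**Figure D4:**
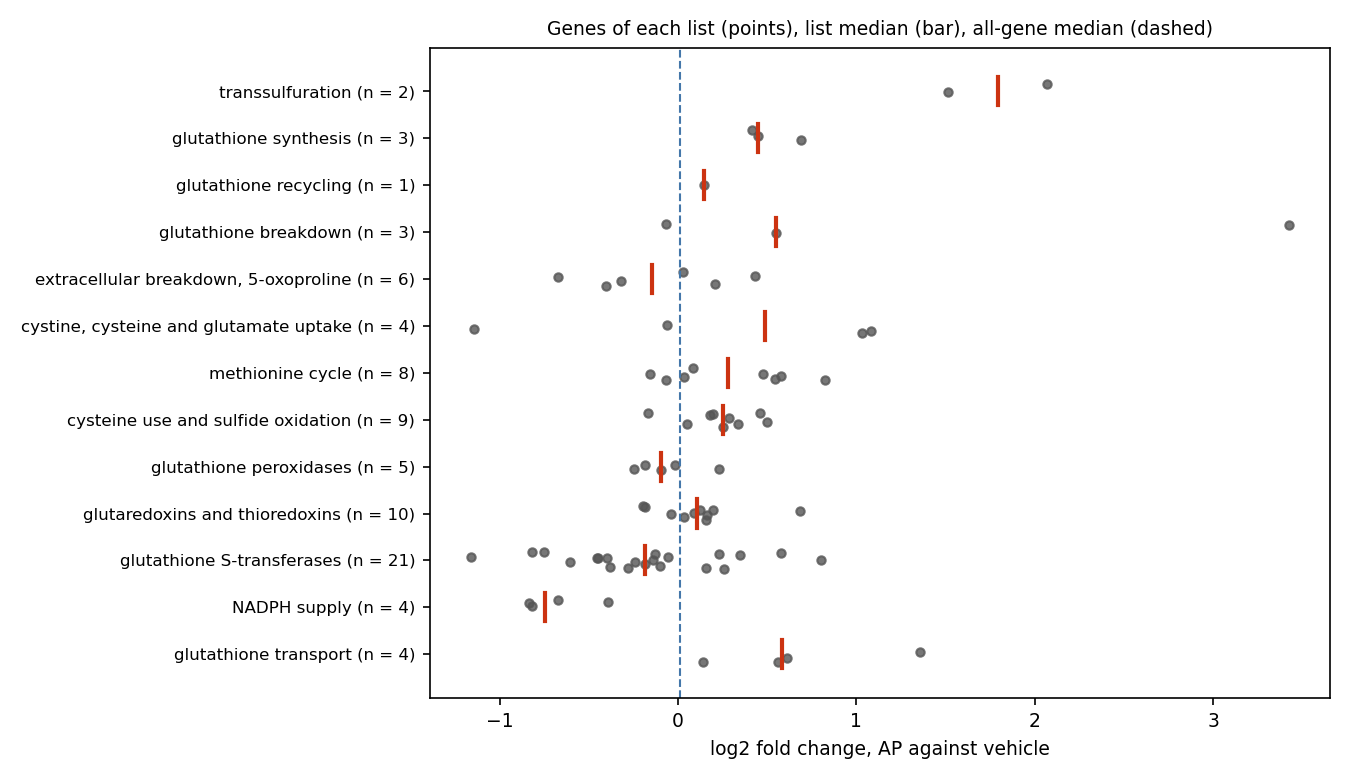
Log2 fold change, AP against vehicle, of each measured gene (points) of the lists of the thiol pathway, with the number of genes in parentheses, the median of each list (red bar) and the median of all genes (dashed line, 0.01). The list medians run from -0.75 for NADPH supply to 1.79 for transsulfuration, and Chac1 is the point at 3.42.

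The promoters of the 9 genes were searched on both strands for motifs of the ISR and of the antioxidant response, in the 250 bases before the start. RefSeq windows were held for 6 of the 9, namely Chac1, Chac2, Ggct, Gclm, Gss and Cbs. The first, TGATGNAA, a form of the composite C/EBP-ATF site, were found in 1 of the 6, Chac1, as TTGCATCA on the opposite strand from -193 to -186, and in 3.45% of 32851 windows of the same length. The antioxidant response element core TGACNNNGC was found in Gclm from -134 to -126 and in Ggct from -174 to -166, and in 10.2% of windows. The full cyclic AMP response element TGACGTCA was found in none of the 6 and in 1.55% of windows. The letters TGACGCAA, which were added to the search after the Chac1 sequence had been read, were found at the far end of its window, from -250 to -243, and in 0.438% of windows. A match is a description of the sequence, and no binding was measured here.

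Markers of other cell types differed between the mice. The summed level of 8 skeletal muscle markers was 32.0 and 571 times the 75th percentile with vehicle and 383 and 199.6 times with AP, and all 8 were highest in vehicle replicate 2. The summed level of the 7 measured of 9 macrophage markers was 32.8 and 40.8 with vehicle and 24.9 and 25.3 with AP, and that of the 3 measured of 6 white adipose markers was 46.3 and 45.1 with vehicle and 32.3 and 36.6 with AP, so both sums were lower in the AP-treated mice. The groups did not overlap for 1 of the 7 macrophage markers, Itgam, and without it the sum was 14.3 and 26.7 with vehicle and 17.7 and 14.6 with AP, which overlap. Most of the white adipose sum was Retn, and without it the sum was 1.16 and 2.78 with vehicle and 0.773 and 0.781 with AP. Itgam and Retn are the brightest of their lists and were chosen after their values were seen. The 5 measured of 8 lymphocyte and antigen presentation markers summed to 34.4 and 98.3 with vehicle and 39.3 and 36.5 with AP, and Cd79a and Cd8a were not well above background. The 4 endothelial markers summed to 33.7 and 37.5 with vehicle and 35.2 and 32.3 with AP, and the 5 erythroid markers to 2389.9 and 1489 with vehicle and 1273 and 1716 with AP. The part of these cells in the values of the glutathione genes was not tested.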

How the data were processed

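BAT RNA of 2 vehicle-treated and 2 AP-treated Tg mice was measured on one-color Agilent arrays. The authors extracted the scans with Agilent Feature Extraction 10.7.1.1 per the file headers and deposited the processed intensity of each spot, background-subtracted and not normalized between arrays, and a table of log2 values of the same arrays. The normalization and centring of that log2 table are not given in the sources used here. Differences between arrays in it correlated with those of the scanner files with r of at least 0.9998 over 24865 probes, which settles the log2 scale and the direction, and its column medians were -0.284, -0.160, -0.437 and -0.293.

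Control spots and outlier spots were dropped, spots of a probe were averaged, and each array was scaled by subtracting the log2 of its own 75th percentile from log2 of the intensity. The comparison took 24970 of 55681 probes, those well above background on both arrays of a group, less 2 with a missing value. Of all probes, 26582 were named through a RefSeq table of GRCm38.p6, used for names because the array design names another build, and for promoter sequences. For a gene with several probes, the one with the highest mean signal was used, which gave 12790 genes. AP was compared with vehicle in limma 3.58.1 (lmFit, then eBayes, under R 4.3.3) with no block, since the numbers are not stated to pair the mice, and p values were adjusted over all probes by the Benjamini-Hochberg method at 0.05. The steps were tested on simulated data. Precision is limited by the number of arrays.

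The members, gene lists, motifs and tests were chosen with earlier results of these data known. Besides the 9 members, the text names a check set of 5 ISR genes, the 5 genes nearest in profile to Chac1 and, for each other list, the genes whose groups did not overlap and that had an unadjusted limma p under 0.05 or an absolute log2 fold change of at least 1, at most 6 a list, or where there was none the gene with the largest change. Genes named as not compared were chosen after their values were seen. Some items that this rule or a list holds are not reported here. The alternatives were normexp correction (offset 50) of the median spot signal, scaling by quantiles or by the array median, the authors' log2 values, dropping the filter or asking for all 4 arrays, a variance trend, averaging a gene's probes, a replicate block, the methods' t-test and leaving out each mouse.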

Additional observations from a re-analysis of the deposited data

How the results depend on the processing

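After adjustment 0 probes passed under every alternative in which probes were counted, which leaves out the averaging of a gene's probes. The fold changes of Chac1, Ggct, Gclc, Gclm, Gss, Cbs and Cth kept their direction under the 15 alternatives run for each. So did the 3 differences between Chac1 and a synthesis gene under 11, which leave out the filters, the variance trend and the methods' t-test. The filters, the variance trend, the replicate blocks and the t-test leave a fold change as it is, so its direction could not turn there. Averaging could not turn it for a gene with a single probe. The 3 differences were likewise unchanged by the array median, the authors' values, the blocks and the averaging, so only the remaining alternatives could turn them. Over all 4 mice, the log2 fold change of Chac1 was between 2.76 and 3.51, and with 1 mouse left out between 2.54 and 4.31. The same ranges were 0.75 to 1.60 and 1.05 to 1.98 for Cbs and 1.20 to 2.15 and 0.87 to 3.27 for Cth, with both low values over all mice from normexp. The log2 fold change of Chac2 turned to 0.016 with the median of each array and ran from -0.28 to 0.15 with 1 mouse left out, and that of Gsr turned to -0.056 with normexp and to -0.017 with the authors' log2 values, and the cause was not tested. The authors' values moved the median of all genes to -0.15, so changes are relative to it there. Probes with an unadjusted p under 0.05 and a 2-fold change numbered 579, and 200 with normexp, 1290 with no filter, where more probes were tested, 384 with the filter on all 4 arrays, where fewer were, 144 with the methods' t-test and 760 to 1449 with 1 mouse left out. Of these, 56.0% were higher with AP, and 68.3% with the median of each array and 27.1% with the authors' log2 values. The replicate numbers are not stated to pair the mice, and the deviations of same-numbered mice correlated with r = -0.128. With a replicate block, 0 probes passed after adjustment and 694 had an unadjusted p under 0.05 and a 2-fold change, and the blocked fit put 3 of the 9 genes under an unadjusted limma p of 0.05 in place of 2. With the crossed pairing, chosen after seeing the data, 0 and 702 probes did. A block for slide or scan could not be fitted with 1 slide and 1 scan. Depth on these arrays is signal over background, and it leaves Slc7a11, Ggt1 and Ggt7 without a comparison and Cbs and Cth with low signals.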
